A study of Mus musculus with 4 samples.

Results

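Lysosomal genes were examined in the mouse aorta after chronic treatment with rosiglitazone, an insulin-sensitising agonist of the nuclear receptor PPARγ. The genes were 37 named lysosomal proteases, other hydrolases, their activators and membrane proteins, plus every gene whose symbol starts with Atp6v, the subunits of the vacuolar proton pump. They were found on the array by their single gene symbol, older names included. Of the 37 listed genes 36 had a probe set and 13 pump genes were added, which gave 49 genes with 72 probe sets, out of 8251 genes and 12422 probe sets in all. Galns was not analysed here. Both groups were adult male mice of the C57BL/6J strain, and each array carried pooled aortic RNA. The rosiglitazone group received 25 mg/kg per day for 21 days (arrays 1 and 2), and the vehicle group received vehicle for 21 days (arrays 3 and 4). The comparison asked which aortic transcripts differed after the treatment. The sources used here give neither the number of animals in a pool nor whether both arrays of a group drew on different pools. The p-values therefore measure array-to-array spread, which may be technical only.

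Lysosomes are acidic organelles in which proteases, glycosidases, lipases and phosphatases break down material taken up from outside or delivered by autophagy. The vacuolar ATPase acidifies them: its V1 sector in the cytosol hydrolyses ATP, and its V0 sector in the membrane carries the protons. Many lysosomal genes carry the CLEAR element, an extended E-box, at which the transcription factors TFEB and TFE3 bind. Several cathepsins are also abundant in macrophages, where they take part in antigen presentation.

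The lysosomal genes did not move as a block. In the rosiglitazone aortas the cysteine proteases Ctss and Ctsh had means about 2.13-fold and 2.03-fold below vehicle, whereas the sphingolipid genes Smpd1 and Psap and the acid phosphatase Acp5 had means 1.61-fold, 1.54-fold and 1.57-fold above it. Ctsd, Lamp1, Gaa, Scarb2, Tpp1 and Cln3 were all within 0.03 of no difference on the log2 scale, and 6 of 13 pump subunits were within 0.25 of it. Of the 49 genes, 45 passed the filter on dim probe sets, each represented by its brightest probe set, and 58 of the 72 probe sets passed. None of the 45 (0) passed an adjusted p of 0.05 in limma, against 0.384% of all 5466 genes tested (0.329% lower, 0.0549% higher), and the smallest adjusted p was 0.169 (Ctss). At an unadjusted p under 0.05 in limma, 2 lysosomal genes were lower (4.44% of 45; 5.93% of all genes) and 5 higher (11.1%; 5.03% of all genes). Groups did not overlap for 10 lysosomal genes that were lower and 12 that were higher, where 22% and 19.1% of all genes behaved so (41.1% in all). The median log2 fold change was -0.06 for the lysosomal genes and -0.02 for all genes, and 29 of 45 lay below 0 (64.4%, against 51.8% of all genes); with each array centred on its median 21 of 45 did. A share of 44.4% lay within 0.25 of no difference, against 37.3% of all genes.

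The precision is that of 2 arrays per group. Within a group, the lysosomal genes had a median SD of 0.22 (rosiglitazone) and 0.20 (vehicle) on the log2 scale, compared with 0.29 and 0.24 for all genes. Simulated arrays took their spread from all probe sets of like intensity, with no low values raised, and not from the lysosomal genes alone. Of probe sets lowered there by 1 on the log2 scale, 69% had an unadjusted p under 0.05 in limma and 0.106% passed the adjustment. A change of about 2-fold thus rarely passed in these simulations, and the share for the lysosomal genes was not simulated. Of probe sets raised by 2 and by 3, 6.64% and 21% passed. The simulation took the observed spread of a probe set as its true spread, which makes spreads too varied. In the data the smooth muscle marker Tagln passed at -1.26 and the brown adipocyte marker Fabp3 at 1.55, so the simulated shares need not hold for these arrays. With 3 splits of 4 arrays into 2 and 2, an exact permutation test cannot go below p = 0.333. The ratio of 3' to 5' signal of actin, a measure of RNA integrity, ran at 7.74 and 9.62 on the rosiglitazone arrays, against 8.88 and 11.9 on the vehicle arrays. That of Gapdh was 8.79 and 10.8 against 11.1 and 11.1, lower on both treated arrays. On all 4 arrays the 3' signal of both genes was thus at least 7.74 times the 5' signal, a strong 3' bias. The part of this bias in the gene values, and in probe sets of 1 gene that disagree, was not tested.

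**Figure D1:**
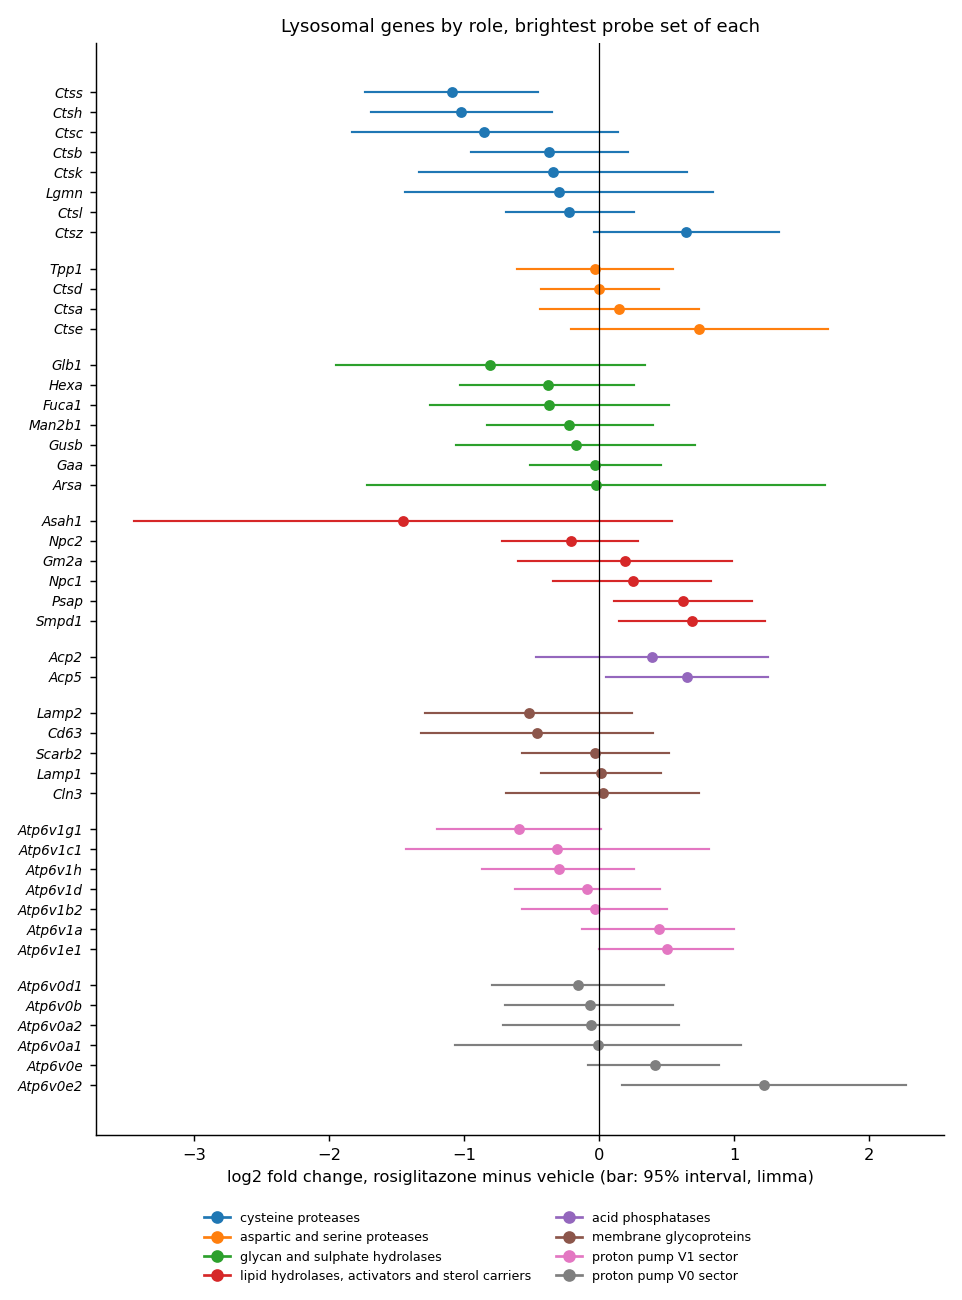
Log2 fold change (rosiglitazone minus vehicle) of the brightest probe set of each of the 45 lysosomal genes tested, ordered by role; points are estimates and bars 95% intervals from limma. The intervals of 7 genes leave out 0, those of Ctss and Ctsh below it and those of Smpd1, Psap, Acp5, Atp6v1e1 and Atp6v0e2 above it, and none of these passed the adjustment over all probe sets.

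Promoter sequence is shown for the genes on which the description turns, as RefSeq windows of the GRCm38.p6 build that run from 250 bases before to 50 after a transcript start. A window was found for 39 of the 49 genes. The E-box CACGTG lay in a window of 14 of the 39 genes (35.9%), compared with 8.09% of all genes with a window and 11.5% of those with a probe set on this array. The longer palindrome TCACGTGA, the core of the CLEAR element, lay in 7 (17.9%; 1.12% of all genes), and the full CLEAR form, this core with G before and C after it, in 1, Cln3. The motif GAGGAAGT, a form of the site of the myeloid factor PU.1, lay in 4 genes (10.3%; 3.69% of all genes), Ctss (log2 fold change -1.09), Ctsc (-0.85), Gusb (-0.17) and Gla, which was too dim to test. The DR1 repeat, AGGTCA repeated after 1 base of any kind, a consensus for PPAR with RXR, was found in none of the 39 (0), and in 0.0481% of all genes. Motifs were searched on both strands, and each TCACGTGA match also counts as an E-box. A match is a description of the letters, not of binding, and no match says only that these letters are not in the window. For Cln3 and Ctsa the window shown is that of a downstream start. All stretches read 5′ to 3′ along the gene, with E-box or CLEAR letters in capitals in the first 5; in Ctss and Ctsc the capitals mark ACTTCCTC, the PU.1 motif read from the other strand. Smpd1 and Psap, shown because their means were higher with rosiglitazone, held none of these motifs in these stretches.
Cln3, bases -155 to -86, chr7:126583322-126583391, minus strand: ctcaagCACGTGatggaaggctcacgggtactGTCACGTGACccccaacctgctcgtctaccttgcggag
Ctsd, bases -130 to -61, chr7:142387888-142387957, minus strand: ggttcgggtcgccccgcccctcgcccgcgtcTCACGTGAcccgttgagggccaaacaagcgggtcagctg
Atp6v1a, bases -165 to -96, chr16:44139355-44139424, minus strand: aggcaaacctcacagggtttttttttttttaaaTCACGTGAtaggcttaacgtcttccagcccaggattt
Ctsa, bases -70 to -1, chr2:164833703-164833772, plus strand: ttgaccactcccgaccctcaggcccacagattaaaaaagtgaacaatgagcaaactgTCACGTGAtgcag
Lamp1, bases -70 to -1, chr8:13159091-13159160, plus strand: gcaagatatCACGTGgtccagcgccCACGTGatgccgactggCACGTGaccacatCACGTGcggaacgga
Ctss, bases -64 to 6, chr3:95526722-95526791, plus strand: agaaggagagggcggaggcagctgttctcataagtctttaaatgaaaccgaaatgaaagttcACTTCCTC
Ctsc, bases -185 to -116, chr7:88277900-88277969, plus strand: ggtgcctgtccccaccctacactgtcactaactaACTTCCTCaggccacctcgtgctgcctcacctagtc
Smpd1, bases -70 to -1, chr7:105554290-105554359, plus strand: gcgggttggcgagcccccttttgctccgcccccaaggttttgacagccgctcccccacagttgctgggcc
Psap, bases -70 to -1, chr10:60277558-60277627, plus strand: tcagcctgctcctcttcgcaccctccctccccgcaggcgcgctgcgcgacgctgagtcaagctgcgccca

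The cysteine proteases were the role group with the lowest median. Below vehicle were 7 of 8 genes (median -0.35 on the log2 scale), and centring or quantile normalization of the arrays left this count at 7. It was 6 when either rosiglitazone array was left out, and the median ran from -0.62 (rosiglitazone replicate 2 left out) to -0.36 (vehicle replicate 4 left out). Ctss, cathepsin S, which trims the invariant chain of MHC class II in antigen-presenting cells, gave 2798 and 4419 with rosiglitazone against 8530 and 6579 with vehicle. Both treated arrays lay below both vehicle arrays. The log2 fold change was -1.09 (standard error 0.28; limma, unadjusted p = 0.00389, adjusted p = 0.169). Without rosiglitazone replicate 2 it was -1.42 and passed (adjusted p = 0.0449), and with any other array left out it did not. Ctsh, cathepsin H, an aminopeptidase, had 1797 and 1437 with rosiglitazone against 3627 and 2928 with vehicle, again with no overlap (log2 fold change -1.02, standard error 0.30, unadjusted p = 0.0074, adjusted p = 0.221 in limma). It ranged from -1.18 to -0.86 with 1 array left out. Markers of macrophages are given beside these genes. All 16 tested lay below 0 on their brightest probe set (median -0.70), as did 51.8% of all genes. Of the 16, 7 had an unadjusted p under 0.05 in limma, where 5.93% of all genes were lower at that level. The summed intensity of the 20 with a probe set was 38929 and 34904 on the treated arrays and 79770 and 87683 on the vehicle arrays. That is 2.27-fold lower, or 1.7-fold without Cd14, the marker with the largest difference, left out after its values were seen. No marker lay under the floor of 148, to which lower intensities were raised, on all 4 arrays (0 of 20), and 2 did on both treated arrays (Aif1 and Fcgr2b). The log2 fold changes of the 16 ran from -2.93 (Cd14) to -0.15 (Msr1), and 1, Cd14, passed the adjustment in limma. Csf1r had 2263 and 1750 against 2755 and 3242 and Adgre1 381 and 264 against 505 and 655. Second probe sets were less uniform. Those tested gave -0.02 for Csf1r, with overlap, 0.15 for C1qb and -1.10 for Laptm5. A second one of Adgre1, too dim to test, had 156 and 212 against 15 and 33. Dim ones of Cd68, Lyz2, Mpeg1 and Msr1 had lower means. Fcer1g, too dim to test, was also lower, at 91 and 209 against 776 and 692. Itgam, too dim to test as well, had 134 and 161 against 96 and 69. All its values but 161 lay under the floor, so that its difference of 0.06 on the log2 scale gives no direction. The part of the macrophage markers in the cathepsin values was not tested. In pooled tissue RNA fewer cells of a type and less RNA per cell cannot be told apart. Ctsc, cathepsin C, which activates the serine proteases of granulocytes and lymphocytes, had 909 and 587 against 1327 and 1300 (-0.85, standard error 0.44, adjusted p = 0.54), and its other probe sets disagreed, at 0.11 for the one tested and -1.44 for one too dim to test.

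Ctsb, cathepsin B, had 4 probe sets, all below 0. The brightest gave 37140 and 59446 with rosiglitazone against 65664 and 55889 with vehicle, so that its groups overlapped (-0.37, 95% interval -0.95 to 0.21). Another gave 1370 and 1308 against 2280 and 2494, with no overlap (-0.83, unadjusted p = 0.0239, adjusted p = 0.365 in limma). Ctsl, cathepsin L, was close between the groups, at 6970 and 6506 with rosiglitazone against 7922 and 7731 with vehicle (-0.22), lower on both treated arrays. Ctsk, the collagen-degrading cathepsin K, and Lgmn, the asparaginyl endopeptidase legumain, had overlapping groups. Ctsk had 800 and 1592 against 1206 and 1690, and Lgmn 1536 and 609 against 1048 and 1354. Ctsz, cathepsin Z, was the exception in direction, with 3527 and 2488 with rosiglitazone against 2059 and 1746 with vehicle. Its groups did not overlap (0.64, standard error 0.30, unadjusted p = 0.0634, adjusted p = 0.49 in limma).

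**Figure D2:**
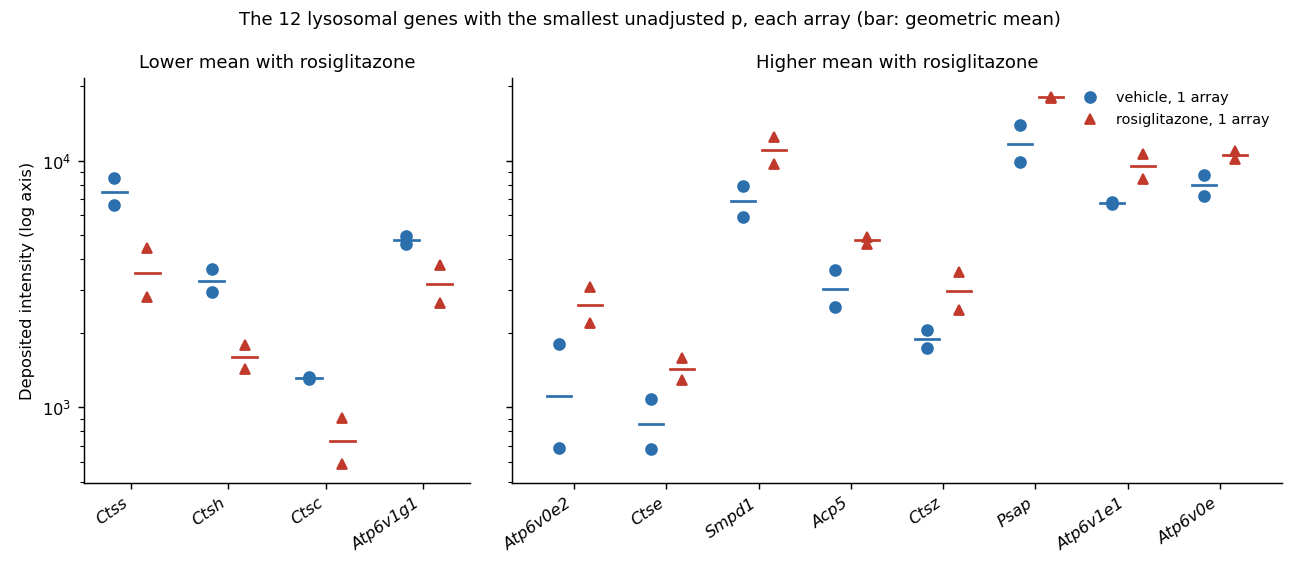
Deposited intensity (log axis) on each array for the 12 lysosomal genes with the smallest unadjusted p; each point is 1 array and bars are geometric means of 2 arrays. In all 12 genes both rosiglitazone arrays lie on the same side of both vehicle arrays, lower for Ctss, Ctsh, Ctsc and Atp6v1g1 and higher for the others. The genes were picked by p on these same arrays, so this follows largely from the choice. Of all genes tested, 41.1% had no overlap. Intensities of different genes come from different probes and are not comparable.

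Of the 4 aspartic and serine proteases 3 were within 0.15 of no difference, and Ctse was 1.67-fold above vehicle on its brightest probe set. Ctsd, cathepsin D, the main aspartic protease of lysosomes, had 43482 and 45126 with rosiglitazone against 43294 and 45144 with vehicle, almost the same values in both groups (log2 fold change 0.00, 95% interval -0.43 to 0.44). Tpp1, tripeptidyl peptidase, had 5318 and 4966 against 4348 and 6346. Ctsa, the protective protein of the sialidase and galactosidase complex, had 2916 and 3159 against 2629 and 2860, higher on both treated arrays by 1.11-fold on average. Ctse, cathepsin E, an aspartic protease of immune and epithelial cells, had probe sets that disagreed. The brightest had 1585 and 1289 with rosiglitazone against 1082 and 676 with vehicle (0.74, standard error 0.42, adjusted p = 0.577 in limma) and a second one was alike in direction (0.85). Another, too dim to test, had 57 and 112 with rosiglitazone, both under the floor, and 544 and 244 with vehicle, at least 2.46-fold lower with rosiglitazone.

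Of the 10 glycosidases and sulphatases, which strip sugars and sulphate from glycoproteins, glycolipids and glycosaminoglycans, 7 were bright enough to test and 3 were not, and the sign of the smallest differences depended on the scaling. The 7 tested lay below 0 (median -0.22), compared with 5 of 7 after median centring and 6 of 7 after quantile normalization. Glb1, beta-galactosidase, the lowest of them, had 617 and 497 with rosiglitazone against 878 and 1068 with vehicle, with no overlap (-0.81, 95% interval -1.95 to 0.34), while its other probe set, too dim to test, had 134 and 640 against 168 and 189. Gaa, the acid alpha-glucosidase that degrades glycogen, was close to even, at 6394 and 7232 against 6950 and 6912. Gusb, beta-glucuronidase, had 949 and 1060 against 1152 and 1110, lower on both treated arrays. Hexa, a hexosaminidase subunit, had 4073 and 2711 against 3888 and 4832, and its second probe set had the opposite sign (0.34). Groups also overlapped for Man2b1, alpha-mannosidase (-0.22), Fuca1, alpha-fucosidase (-0.37), and Arsa, arylsulphatase A (-0.02). Second probe sets had the opposite sign for Man2b1 (0.20, tested) and Arsa (0.88, too dim to test). Gla, Idua and Neu1 were too dim to test and had means above vehicle: Neu1, a sialidase, had 424 and 315 with rosiglitazone against 95 and 241 with vehicle, Gla 46 and 292 against 119 and 88, and Idua 573 and 108 against 141 and 217.

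The genes of lysosomal sphingolipid turnover included the higher means of Smpd1 and Psap. Of the 6 lipid enzymes, activators and carriers tested, 4 lay above 0 (median 0.22, and -0.07 without vehicle replicate 3). Smpd1, acid sphingomyelinase, which cleaves sphingomyelin to ceramide, had 12456 and 9719 with rosiglitazone against 7866 and 5932 with vehicle (0.69, standard error 0.24, unadjusted p = 0.0182, adjusted p = 0.333 in limma). Psap, prosaposin, the precursor of the saposins that assist sphingolipid hydrolases, had 18133 and 17920 against 13886 and 9892 (0.62, standard error 0.22, unadjusted p = 0.0216, adjusted p = 0.353). Neither gene had overlapping groups, and both stayed above 0 with any 1 array left out, from 0.48 to 0.89 for Smpd1 and from 0.38 to 0.87 for Psap. A second probe set of Psap gave 4185 and 3517 against 2561 and 2570 (0.58, unadjusted p = 0.0511), and another lay under the floor on all arrays. A second, dim probe set of Smpd1 had 298 and 702 against 246 and 77. Asah1, acid ceramidase, which acts next on ceramide, had 1234 and 81 with rosiglitazone against 1019 and 1339 with vehicle, so that its log2 fold change of -1.45 came from 1 array (0.08 without rosiglitazone replicate 2). Gm2a, the activator of GM2 ganglioside hydrolysis, overlapped, at 5758 and 8218 against 4143 and 8757. Of the sterol carriers that export cholesterol from lysosomes, Npc1 had 3424 and 3245 against 2599 and 3031, higher on both treated arrays (0.25). Npc2 had 18845 and 26550 against 24706 and 27238, with overlap (-0.21). Ppt1, a palmitoyl-protein thioesterase, was too dim to test, at 112 and 254 against 136 and 239.

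Both acid phosphatases had higher means. Acp5, the tartrate-resistant form known from osteoclasts and macrophages, had 4924 and 4589 with rosiglitazone against 3591 and 2558 with vehicle (0.65, standard error 0.27, unadjusted p = 0.037, adjusted p = 0.419 in limma). Acp2, the lysosomal form, had 1289 and 1558 against 1265 and 926, with groups that just failed to overlap (0.39, 95% interval -0.47 to 1.25). Among the membrane glycoproteins Lamp1, a main protein of the limiting membrane, was even at 39185 and 41758 against 42981 and 37379 (0.01, 95% interval -0.43 to 0.46). Scarb2, the receptor that carries glucocerebrosidase to lysosomes, was too, at 5170 and 5933 against 4946 and 6452. Lamp2, needed for fusion with autophagosomes, was lower on both treated arrays in each of its 2 probe sets, with 1689 and 1178 against 2171 and 1895 on the brighter (-0.52, 95% interval -1.29 to 0.24) and -0.56 on the other. Cd63, a tetraspanin of late endosomes, had 4215 and 1818 against 4112 and 3530, and Cln3, a membrane protein lost in a childhood storage disease, 1886 and 2672 against 1950 and 2493, both with overlap.

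**Figure D3:**
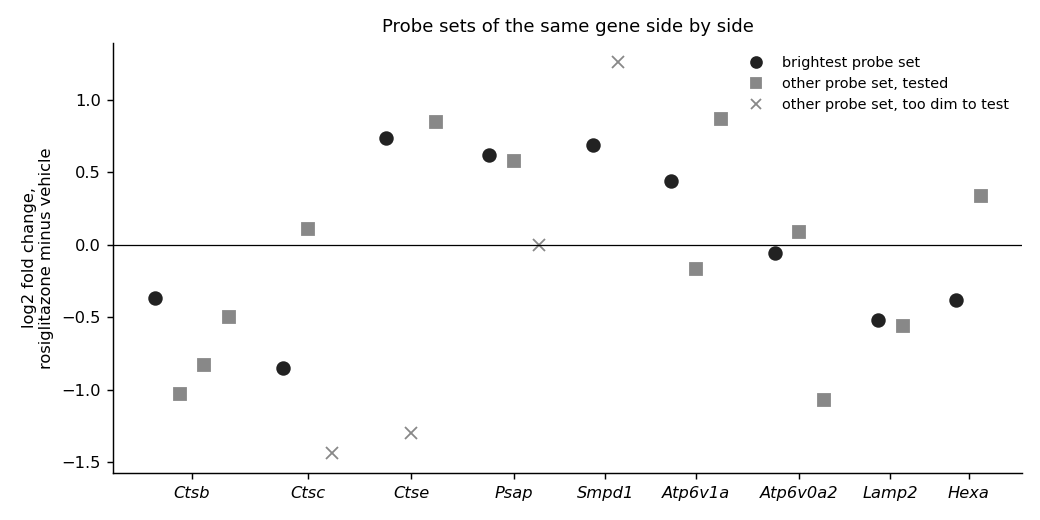
Log2 fold change (rosiglitazone minus vehicle) of every probe set of 9 of the 16 lysosomal genes with more than 1. Circles mark the brightest, squares other probe sets tested and crosses those too dim to test. Man2b1, not drawn, has tested probe sets at -0.22 and 0.20. The 4 of Ctsb lie below 0 and the 2 of Lamp2 agree, whereas Ctsc, Ctse, Atp6v1a, Atp6v0a2 and Hexa have probe sets on both sides of 0.

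The proton pump showed no shared direction. Of its 13 genes 9 lay below 0 and 4 above (median -0.06, largest difference 1.22), and the V0 sector's median of -0.03 became 0.05 with each array centred on its median. In the V1 sector Atp6v1e1, a subunit of the stator stalk, had 10598 and 8454 with rosiglitazone against 6780 and 6645 with vehicle (0.50, standard error 0.22, unadjusted p = 0.0499, adjusted p = 0.459 in limma). Atp6v1g1, which pairs with subunit E in the same stalk, had 2647 and 3788 against 4606 and 4960, lower on both treated arrays (-0.59, standard error 0.27, unadjusted p = 0.0532, adjusted p = 0.467). The partners thus lay on opposite sides of 0. Atp6v1a, the catalytic subunit, had 4942 and 3973 against 3234 and 3303 (0.44), but its other tested probe sets gave -0.17 and 0.87. Atp6v1b2, the other subunit of the catalytic hexamer, overlapped at 5609 and 7589 against 6875 and 6497, as did Atp6v1c1 (649 and 1035 against 766 and 1353) and the rotor subunit Atp6v1d (4155 and 3821 against 4345 and 4123). Atp6v1h, a regulatory subunit, had 3441 and 2999 against 4211 and 3733 (-0.30), with no overlap.

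In the V0 sector Atp6v0e2, one of 2 genes for the small subunit e, had the largest positive difference of all lysosomal genes tested. It gave 2197 and 3063 with rosiglitazone against 685 and 1806 with vehicle (1.22, standard error 0.47, unadjusted p = 0.0274, adjusted p = 0.381 in limma), and without vehicle replicate 3 the value was 0.52. The other gene for this subunit, Atp6v0e, had 10911 and 10157 against 8763 and 7185 (0.41, standard error 0.21, adjusted p = 0.543), also with no overlap. Both genes of subunit e were higher on both treated arrays. The remaining V0 genes had small differences. Atp6v0d1 had 2124 and 2117 against 2370 and 2353 (-0.16), lower on both treated arrays. Groups overlapped for Atp6v0b, at 3104 and 3635 against 2964 and 4211, and Atp6v0a1, at 787 and 798 against 817 and 776. Atp6v0a2, an isoform of subunit a, had 2597 and 2524 against 3138 and 2271 (-0.06), and its other tested probe sets gave 0.09 and -1.07.

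Genes with an E-box in a promoter window included Cln3, Ctsd, Ctsa and Lamp1, near no difference, and Atp6v1a (0.44), Atp6v0e (0.41) and Glb1 (-0.81), farther from it. The 13 tested had a median absolute log2 fold change of 0.15, with 9 of them within 0.25 of no difference, 0 at an unadjusted p under 0.05 in limma and 6 whose groups did not overlap. The 22 tested genes with windows that lack it had a median of 0.39, with 8 within 0.25, 6 at an unadjusted p under 0.05 in limma and 11 without overlap. Groups did not overlap for 41.1% of all genes tested, and the counts of 6 and 11 without overlap are not read as a difference. Across the alternative settings the median absolute value ran from 0.11 to 0.20 for the first group and from 0.34 to 0.47 for the second. Median intensities were 11.75 and 11.86 on the log2 scale, and median standard errors 0.26 and 0.30, both lower in the first group. Their part in these values was not tested. Among tested genes outside the list, the median absolute value was 0.33 for 528 with an E-box and 0.36 for 3827 without, with 8.52% and 11.5% at an unadjusted p under 0.05 and 36.9% and 37.4% within 0.25. The 10 tested genes with no window in the table had 0.34, with 1 at an unadjusted p under 0.05. The split was made after the members' values were known and is a description with no test.

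**Figure D4:**
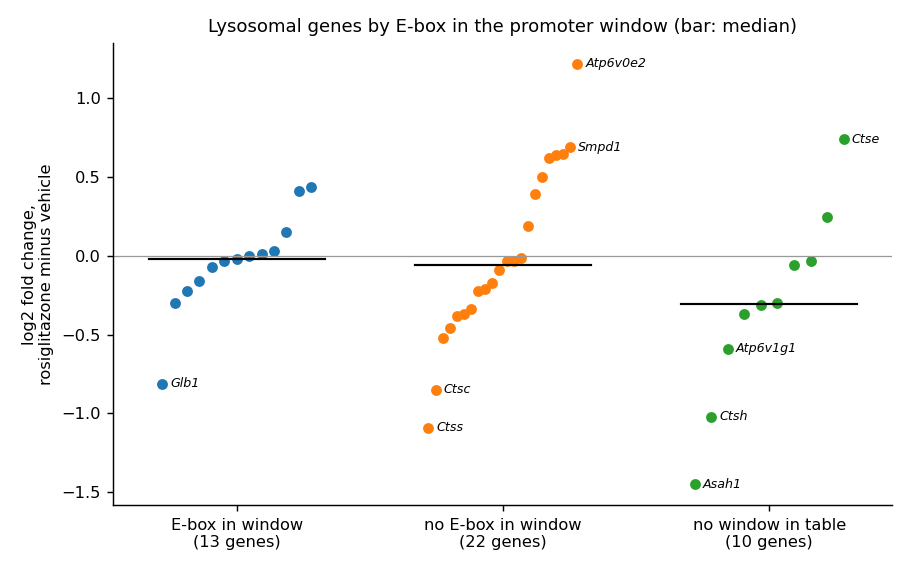
Log2 fold change (rosiglitazone minus vehicle) of the tested lysosomal genes, by whether a promoter window holds CACGTG; each point is 1 gene, bars are medians, and the genes farthest from 0 are named. The 13 E-box genes run from -0.81 to 0.44 and the 22 without it from -1.09 to 1.22.

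Markers of other cells differed between the groups in both directions. The neutrophil sum was 14.9-fold lower, at 12757 and 10275 against 137885 and 204560, with 10 of 11 tested markers below 0 (median -0.69). Without S100a8 and S100a9, left out after their values were seen, it was 11066 and 7193 against 16457 and 17109, 1.84-fold lower. These sums took Lcn2 from its brightest probe set (-0.69). Its other one had 145 and 57 against 3982 and 5054, at least 30.3-fold lower (adjusted p = 0.00214 in limma). Second probe sets too dim to test gave -1.47 for Mmp9, 0.26 for Mpo, and 0.18 and 1.14 for Csf3r. The brown adipocyte sum, with 7 of 8 markers above 0, was 1.46-fold higher, next to Smpd1, Psap and Acp5. Most of this sum was Cidea (240828 and 286124 against 188712 and 199365). The white adipocyte sum, with 7 of 11 above 0, was 1.32-fold higher, and most of it was Adipoq (165554 and 195068 against 125080 and 136822). Smooth muscle markers, of the main cell of the aortic wall, were present, with 10 of 10 below 0 (median -0.98). Most fibroblast (11 of 12, -0.51), endothelial (8 of 11, -0.28) and lymphocyte markers (6 of 7, -0.77) also lay below 0, as did 51.8% of all genes. Erythrocyte markers were mixed, with 3 of 5 below 0 (median -0.73), Hba-a1 at 0.02 and Slc4a1 at 0.65. Their sum overlapped, at 507470 and 669832 against 564339 and 658452. The sum of the 4 osteoclast markers, next to Acp5, was 1612 and 1851 against 1203 and 1544, 1.26-fold higher. Tnfrsf11a alone was bright enough to test (-0.11); Nfatc1 had 494 and 565 against 125 and 89 (at least 3.57-fold higher), Calcr 391 and 380 against 122 and 233, and Itgb3 39 and 153 against 141 and 480. The part of these cell types in the lysosomal values was not tested.

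**Figure D5:**
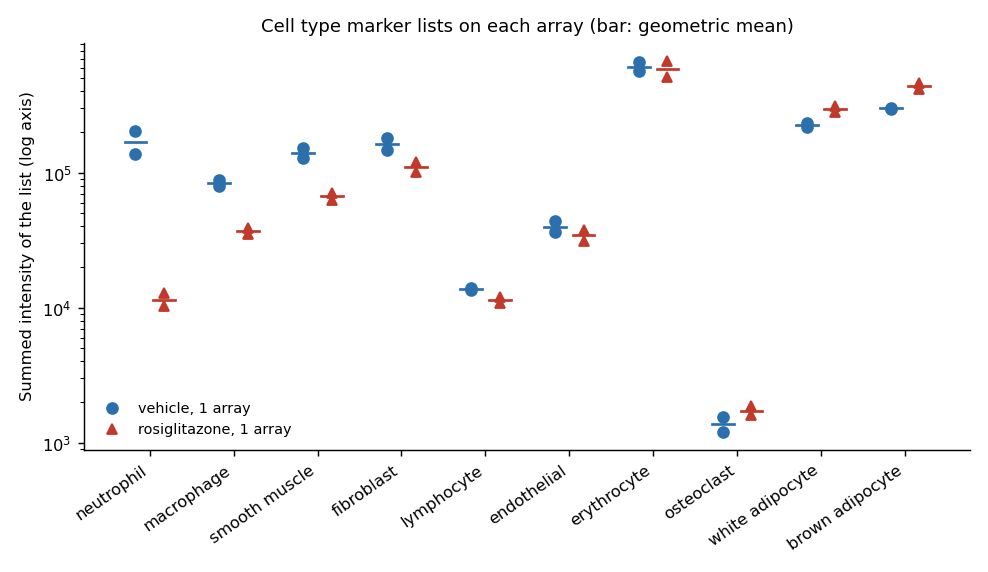
Summed intensity (log axis) of each cell type marker list on each array; points are arrays and bars geometric means of 2 arrays. Rosiglitazone arrays lie below vehicle arrays for the neutrophil, macrophage, smooth muscle, fibroblast and lymphocyte lists and above them for the osteoclast list and both adipocyte lists; the endothelial and erythrocyte lists overlap.

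Other genes of the pathway were mixed as well. Of 8 further lysosomal enzymes tested 5 lay above 0 (median 0.03), and Lipa, the acid lipase, was the only one past the adjustment (3103 and 1880 against 220 and 229; log2 fold change 3.43, adjusted p = 0.035 in limma). This call was lost with any 1 array left out (adjusted p from 0.0506 to 0.569), with the floor at the 40th percentile (0.503), without the filter (0.303) and without the trend (0.122). Hyal2, a hyaluronidase, had 1.24, Naglu, which degrades heparan sulphate, 0.86, and Dpp7, a dipeptidyl peptidase, -0.49. Of 25 membrane and sorting genes 12 lay below 0 (median 0.10), and none (0) passed the adjustment in limma. At an unadjusted p under 0.05 in limma were 4, all lower, and 5.93% of all genes were lower at that level. These were Slc11a1, the metal transporter of phagosomes (-2.62; past the adjustment without rosiglitazone replicate 1, adjusted p = 0.0139), Cd68 (-1.43), Laptm5 (-1.17) and the clathrin light chain Clta (-0.65). The first 3 are known from macrophages, and Cd68 and Laptm5 also stand in the macrophage list. Among 15 MiT/TFE factor and autophagy genes 8 lay above 0 (median 0.04), with 0 past the adjustment in limma and 1, Mtor, at an unadjusted p under 0.05 (0.79; its second probe set -0.12). Mitf, a relative of TFEB, had 723 and 1118 with rosiglitazone against 499 and 99 with vehicle (1.73, adjusted p = 0.476), Map1lc3a and Ulk1 each had 0.52, and Tfeb itself was too dim to test, at 115 and 120 against 171 and 137.

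Of the inhibitors of cathepsins and other proteases, 4 of 6 tested lay below 0 (median -0.38). Serpina3n, a secreted serine protease inhibitor, fell 5.06-fold, from 4928 and 3434 with vehicle to 1100 and 601 with rosiglitazone (adjusted p = 0.0477 in limma), and did not pass without vehicle replicate 3 (-2.08) or vehicle replicate 4 (-2.60), with centring or quantile normalization (0.0897 and 0.0706), with averaged probe sets (0.0783), the higher floor (0.517), no filter (0.346) or no trend (0.317). Serpinb6a, an intracellular serpin, had -1.55 (adjusted p = 0.0799) and passed without rosiglitazone replicate 1 (-1.94, adjusted p = 0.0131). Cst3, cystatin C, the main secreted inhibitor of cysteine cathepsins, had 82363 and 35290 with rosiglitazone against 32982 and 37665 with vehicle, 1 treated array far above the other 3. Its log2 fold change of 0.61 went to 0.00 when rosiglitazone replicate 1 was left out and to 1.22 (adjusted p = 0.0396) when replicate 2 was. Timp1, an inhibitor of matrix metalloproteinases, had -0.66.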

How the data were processed

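RNA was measured on Affymetrix MG-U74Av2 arrays, 2 per group. The deposited values are intensities on a linear scale; software, background correction and scaling are not given in the sources used here. Their trimmed mean was 1501 on each of the 4 arrays, and array medians differed by at most 0.13 on the log2 scale, so no further scaling was applied. Of 12422 non-control probe sets, 10833 had 1 gene symbol in the platform's table, 396 several and 1193 none listed. Intensities under 148 (20th percentile) were set to 148, log2 was taken, and probe sets with a mean at or above 414 (40th percentile) were kept (7134; 26 passed). limma 3.58.1 in R 4.3.3 gave two-sided tests between groups (lmFit, then eBayes with its intensity trend), adjusted by Benjamini-Hochberg over the 7134 at a threshold of 0.05. Standard errors and 95% intervals are limma's. Where a group lay wholly under the floor, only a bound is given. The procedure was tested on simulated arrays.

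Standard errors and adjusted p-values are given for the 12 lysosomal genes with the smallest unadjusted p in limma. These include the 3 highest and the pump's extremes. Genes named from other lists are examples, not all of them picked by p, and most are given without full statistics. The members and lists were chosen with earlier results of these data known. Motifs were chosen after the members' values were seen. The brightest probe sets of Ctse, Glb1, Arsa and Atp6v1c1 carry a suffix (f, i or r) of designs with related transcripts or fewer usable probes. Alternatives were array centring, quantile normalization, a higher floor, an offset, no filter, no trend, averaging probe sets, and leaving out each array.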

Additional observations from a re-analysis of the deposited data

How the results depend on the processing

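No paired analysis was possible because the groups share no replicate number. No lysosomal gene passed the adjustment under the 7 alternatives of scaling, floor, filter, trend and averaging; with 1 array left out 0 to 1 were lower (Ctss) and 0 to 0 higher. The count lower at an unadjusted p under 0.05 was 0 to 6 with 1 array left out, and the count higher, 5 in the main setting, was 1 to 4; it was 1 with the floor at the 40th percentile, 1 without the filter on dim probe sets and 0 without the intensity trend. Genes without overlap numbered 16 to 21 lower and 14 to 18 higher with 1 array left out, where fewer arrays make overlap rarer. The median of the lysosomal genes was 0.02 with each array centred on its median and -0.15 to 0.03 with 1 array left out, so its sign is not settled.

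Only genes near 0 changed sign in the settings that kept all arrays. With centring, Gaa turned to 0.06, Atp6v1b2 to 0.05, Scarb2 to 0.05, Tpp1 to 0.05, Atp6v0b to 0.01, Atp6v0a2 to 0.02, Atp6v0a1 to 0.08 and Arsa to 0.06. With quantile normalization, Ctsd turned to -0.07, Lamp1 to -0.11, Atp6v0a1 to 0.08 and Arsa to 0.08. Averaged over probe sets, Atp6v1b2 turned to 0.12 and Cln3 to -0.21. With 1 array left out the range crossed 0 for Ctsd (-0.03 to 0.03), Lamp1 (-0.09 to 0.11), Npc2 (-0.46 to 0.03), Gaa (-0.12 to 0.06), Atp6v1b2 (-0.25 to 0.18), Gm2a (-0.35 to 0.73), Scarb2 (-0.22 to 0.16), Tpp1 (-0.30 to 0.24), Man2b1 (-0.44 to 0.01), Atp6v0b (-0.33 to 0.18), Cd63 (-1.07 to 0.15), Atp6v0a2 (-0.29 to 0.17), Cln3 (-0.23 to 0.28), Fuca1 (-0.75 to 0.02), Ctsk (-0.84 to 0.16), Lgmn (-0.97 to 0.37), Atp6v1c1 (-0.72 to 0.10), Atp6v0a1 (-0.04 to 0.03), Asah1 (-2.98 to 0.08) and Arsa (-0.55 to 0.50). The cause of these changes was not tested. Without detection calls in the values used, the signal of a probe set over its background is unknown.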
